A study of Mus musculus with 2 samples.

Results

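The early B lymphoid genes are 10 genes that are switched on, in steps, as a progenitor commits to the B cell lineage. They were selected by gene symbol from the 24421 symbols counted in each of 2 RNA-seq libraries, and 10 of 10 were found. Both libraries came from hematopoietic stem cells (HSCs) isolated by flow cytometry as CD34- Flt3- CD48- CD150+ cells within the LSK gate, which keeps cells without lineage markers that carry Sca-1 and c-kit, on a C57BL/6 background. The donor of the WT library was Ezh2 +/+ CreERT+/-, and that of the other library, here called KO-labelled, was Ezh2 Δ/Δ CreERT+/-, made from floxed *Ezh2*. All donors therefore carried the tamoxifen-inducible Cre, and the labels describe 1 tamoxifen course (100 µl at 10 mg/ml on 5 consecutive days) without setting either genotype apart. CD45.2 donor marrow had been transplanted into lethally irradiated CD45.1 recipients, and HSCs were taken 1 month after the injections. The labels do not give the promoter that drives Cre, the age or number of the animals, whether cells were pooled, or whether the sort also removed surviving CD45.1 host cells.

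There was 1 library for each genotype, so no difference between them has a replicate check. Reads assigned to genes numbered 5763118 in WT and 4157280 in the KO-labelled library. An interval or floor given here covers counting error only, since reads amplified by PCR without molecular identifiers are not independent molecules. A count of 0 allows a level of up to 0.521 CPM (gene counts scaled to a common library total) in WT and 0.722 CPM in the KO-labelled library, taken as 3 counts. *Ezh2* itself, which encodes the Polycomb methyltransferase, had 166 and 129 counts with WT first, a log2 ratio of 0.08 (95% interval -0.27 to 0.42), so gene-level counts did not show its loss. The libraries also differed in sex-linked RNA, with 801 and 4 counts of *Xist* and 0 and 275 counts of *Ddx3y*, both named after their values were seen. With 1 library for each genotype, this difference in sex-linked RNA coincides with the genotype label. The parts of the 2 in any ratio given below cannot be told apart. The sorted cell type was checked with 10 HSC markers. All 10 were counted in both libraries, their summed level was 3925 CPM in WT and 4203 CPM in the KO-labelled library, and 0 of the 10 were called different by the rule given below.

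B cell development builds an antigen receptor by cutting and rejoining gene segments. The recombinase RAG1 and RAG2 cuts the DNA, and terminal deoxynucleotidyl transferase (*Dntt*) adds bases at the joints. Before a light chain exists, the new heavy chain is tested with a surrogate light chain made of the products of *Vpreb1* and *Igll1*, and signals leave the receptor through CD79a and CD79b. The transcription factors EBF1 and PAX5 specify the lineage and hold it. HSCs are multipotent, and the lineage cocktail of the study's sorts holds antibodies to B220, a B cell surface marker, and to IL-7Rα, the receptor of lymphoid progenitors.

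The genes that stood highest against WT lie at 3 places in the mouse genome. *Igll1* (chromosome 16, 16860671 to 16863985, minus strand) and *Vpreb1* (chromosome 16, 16868403 to 16870843, minus strand) are neighbours, *Vpreb3* (chromosome 10, 75943057 to 75949657) has a site of its own, and *Dntt* (chromosome 19, 41029275 to 41059525) spans 13 merged exons (positions from GENCODE M21 on GRCm38, the assembly of mm10). Their 250 bases before the RefSeq transcript start (GRCm38.p6) are shown because these 4 members had between 0 and 5 counts in WT and at least 23 in the other library. Capitals mark matches to the core of the EBF site, spelled CCCNNGGG, and to an E-box bound by E proteins, spelled CAGGTG or CACCTG, searched on both strands. The windows are chr16:16863986-16864235 (minus) for *Igll1*, chr16:16869256-16869505 (minus) for *Vpreb1*, chr10:75948050-75948299 (plus) for *Vpreb3* and chr19:41029025-41029274 (plus) for *Dntt*.
Igll1: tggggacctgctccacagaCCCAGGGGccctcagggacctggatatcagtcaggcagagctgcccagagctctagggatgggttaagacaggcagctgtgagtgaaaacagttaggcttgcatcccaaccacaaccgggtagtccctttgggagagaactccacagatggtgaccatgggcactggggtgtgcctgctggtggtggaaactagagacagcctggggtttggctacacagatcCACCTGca
Vpreb1: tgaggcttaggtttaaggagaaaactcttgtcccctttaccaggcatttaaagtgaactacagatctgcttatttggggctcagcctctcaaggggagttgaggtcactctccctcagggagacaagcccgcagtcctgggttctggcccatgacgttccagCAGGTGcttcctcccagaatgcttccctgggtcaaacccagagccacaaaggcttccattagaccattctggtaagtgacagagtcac
Vpreb3: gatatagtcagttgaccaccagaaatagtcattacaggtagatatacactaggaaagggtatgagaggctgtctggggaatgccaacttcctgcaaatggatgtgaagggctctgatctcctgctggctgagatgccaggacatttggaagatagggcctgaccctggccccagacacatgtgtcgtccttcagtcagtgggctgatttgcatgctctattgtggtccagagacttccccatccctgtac
Dntt: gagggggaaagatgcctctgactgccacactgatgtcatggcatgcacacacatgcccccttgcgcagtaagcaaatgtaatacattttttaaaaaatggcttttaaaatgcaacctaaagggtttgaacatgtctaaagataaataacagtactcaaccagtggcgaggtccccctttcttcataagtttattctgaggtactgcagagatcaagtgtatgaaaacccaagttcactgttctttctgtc

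*Igll1* held 1 EBF core, from -231 to -224 before the transcript start, and 1 E-box, from -8 to -3. *Vpreb1* held 1 E-box, from -88 to -83, and the windows of *Vpreb3* and *Dntt* held neither motif. The 2 motifs do not share a position in these windows. The RefSeq start of *Vpreb1* and that of *Vpreb3* lie inside longer GENCODE gene models. RefSeq windows were matched for 9 of 10 members, all but *Cd79b*, and *Ebf1* had 2 windows, which made 10 windows in all. Among them 4 held an E-box (*Cd79a*, *Igll1*, *Rag1* and *Vpreb1*) against 17.2% of the 32851 windows of all genes, and 1 held the EBF core against 11.8%. An Ikaros core, spelled TGGGAA or TTCCCA, stood in 2 windows (*Ebf1* and *Rag1*) against 21.6% of all, and TATAAA or TTTATA in 0 against 12.4%. These are matches of letters only.

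Across the 10 genes, 8 had at least 1 count in the KO-labelled library and 4 in WT. Of all 24421 symbols, 14022 had at least 1 count in the KO-labelled library and 14141 in WT. More than 3 counts were recorded for 7 of them in the KO-labelled library and for 3 in WT. The summed level of all 10 was 48.4 CPM in WT (279 counts) and 100.1 CPM in the KO-labelled library (416 counts), a ratio of normalised counts of 2.02 (95% interval 1.74 to 2.36). *Cd79b* alone supplied 251 and 229 of these counts. Without *Cd79b* the sum was 28 counts in WT and 187 in the KO-labelled library, a ratio of 9.07 (6.07 to 14.0).

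**Figure D1:**
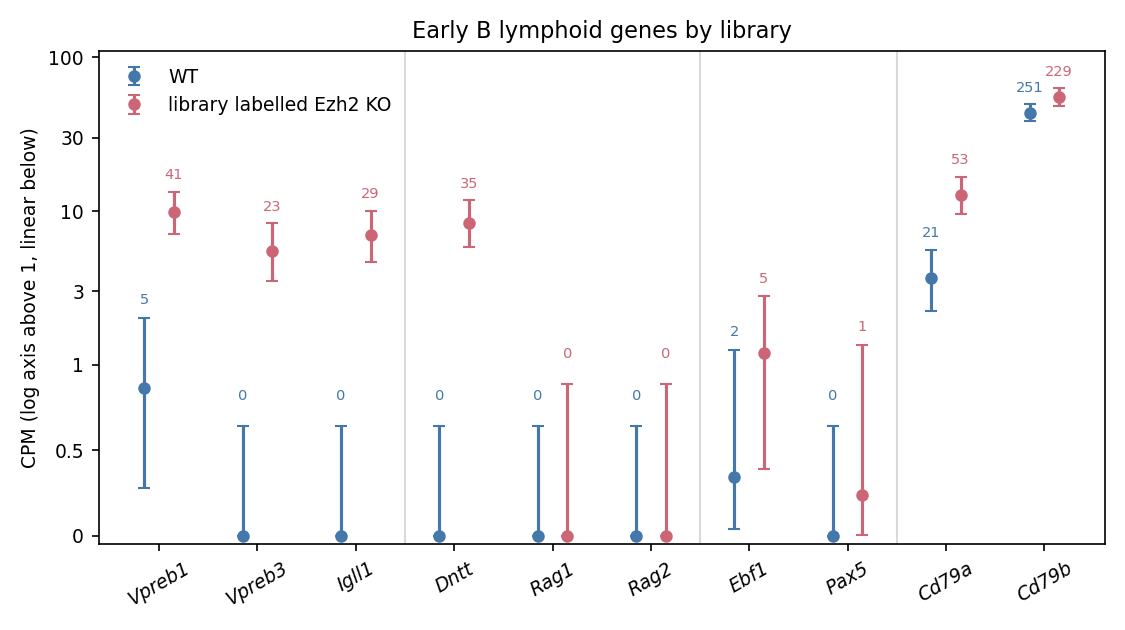
Level of each early B lymphoid gene in CPM (vertical axis, logarithmic above 1 and linear below) in the WT and KO-labelled libraries, 1 library each. Points are the measured level, bars the exact 95% Poisson interval and numbers the raw counts. Grey lines separate surrogate light chain genes (with the related *Vpreb3*), recombination, transcription factor and receptor genes. *Vpreb1*, *Vpreb3*, *Igll1* and *Dntt* sit between 5.53 and 9.86 CPM in the KO-labelled library and at or below 0.868 CPM in WT.

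The surrogate light chain genes and the related *Vpreb3* were nearly absent in WT and present in the KO-labelled library. *Vpreb1*, the V-like component of the surrogate light chain, had 5 counts in WT and 41 in the KO-labelled library, or 0.868 and 9.86 CPM. *Igll1*, its constant-like component (also known as lambda 5), had 0 and 29 counts, the latter being 6.98 CPM. *Vpreb3*, which encodes a related protein of the pre-B cell, had 0 and 23 counts, the latter being 5.53 CPM. For each of the 3 the exact Poisson intervals of the 2 libraries do not overlap. The share of all genes for which this holds was not counted, so the lack of overlap does not set these 3 apart from other genes. The log2 ratio of *Vpreb1*, formed on normalised count plus 1 as KO-labelled over WT, was 3.20 (2.14 to 5.17). *Igll1* was at least 13.1-fold higher and *Vpreb3* at least 10.4-fold higher, against the floor of 3 counts in WT. The exact 95% intervals of these ratios, which also cover the counting error of the KO-labelled library, start at 10.0 and 7.81. Summed, the 3 genes had 5 counts in WT and 93 in the KO-labelled library, a ratio of 25.3 (10.4 to 79.6).

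The recombination genes did not move as a set. *Dntt*, the template-independent DNA polymerase, had 0 counts in WT and 35 in the KO-labelled library (8.42 CPM), at least 15.8-fold higher against the floor of 3 counts in WT. The exact 95% interval of this ratio, which also covers the counting error of the 35 counts, starts at 12.2. *Rag1* and *Rag2* had 0 counts in both libraries, and no fold can be given for either. A count of 0 does not show that *Rag1* or *Rag2* RNA was absent, since it allows a level of up to 0.521 CPM in WT and 0.722 CPM in the KO-labelled library by the floor of 3 counts.

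The lineage factors were at or near the floor. *Ebf1*, which opens B lineage chromatin, had 2 counts in WT and 5 in the KO-labelled library (0.347 and 1.20 CPM), a ratio of 3.39 with an interval from 0.556 to 35.7. *Pax5*, the factor of B lineage commitment, had 0 and 1 count. Neither gene could be told apart between the libraries at these counts.

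The receptor signalling pair differed between its members. *Cd79a* (Igα) had 21 counts in WT and 53 in the KO-labelled library, or 3.64 and 12.7 CPM, a log2 ratio of 1.72 (1.02 to 2.58). *Cd79b* (Igβ) had 251 and 229 counts, or 43.6 and 55.1 CPM, a log2 ratio of 0.31 (0.04 to 0.57). The intervals of the 2 log2 ratios do not overlap, and the CPM intervals of the libraries overlap for *Cd79b* but not for *Cd79a*. Here too, the share of all genes without such an overlap was not counted. *Cd79b* was the only member above 10 CPM in WT.

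Levels between genes were compared per kilobase of merged exon. *Cd79b* stood highest in both libraries, at 30.4 CPM per kb in WT and 38.5 CPM per kb in the KO-labelled library. In the KO-labelled library the next levels were *Cd79a* at 8.75, *Vpreb1* at 8.23, *Vpreb3* at 6.44, *Dntt* at 3.67 and *Igll1* at 3.22 CPM per kb, and neighbours in this order had overlapping counting intervals. *Ebf1*, at 0.123 CPM per kb, was below *Igll1* with intervals that do not overlap, and its interval overlapped that of *Pax5* (0.0272 CPM per kb). In WT, *Cd79a* came next at 2.50 CPM per kb, followed by *Vpreb1* at 0.724 CPM per kb, and the counting intervals of those neighbours overlapped.

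The exact binomial test of the 2 raw counts of each gene, adjusted over all genes tested by Benjamini-Hochberg, compares these 2 libraries and not the genotypes. A gene was called at an adjusted p below 0.01 and at least a 2-fold difference, and genes whose mean level was under 1 CPM were not tested. Of the 10 members, 6 reached that mean, and 5 of the 10 were called higher in the KO-labelled library, namely *Dntt*, *Igll1*, *Vpreb1*, *Vpreb3* and *Cd79a*. None was called lower. Of all 12588 genes tested, 2.8% were called higher and 2.3% lower. *Vpreb1*, *Vpreb3*, *Igll1* and *Dntt* were each below 1 CPM in WT and reached the mean only through the KO-labelled library, so the count of 5 carries the filter with it. The adjusted p of the exact test was 5.67e-12 for *Dntt*, 6.82e-10 for *Igll1*, 2.34e-09 for *Vpreb1*, 7.81e-08 for *Vpreb3*, 7.46e-06 for *Cd79a* and 0.0619 for *Cd79b*. The 4 members below the filter were *Rag1*, *Rag2*, *Ebf1* and *Pax5*.

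Counting error alone does not set these thresholds, because libraries also differ through preparation and animals. With the exact test of edgeR and an assumed spread between libraries of 0.2, as a coefficient of variation (CV), 4 members were called and *Cd79a* was not (adjusted p = 0.0891). At an assumed CV of 0.4, 0 were called, with adjusted p from 0.0346 for *Dntt* to 1 for *Cd79a* and *Cd79b*. These CVs are assumed and not measured.

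The size of the difference was read against all genes without a test. At least a 2-fold higher value was found for 7 of 10 members and at least a 2-fold lower value for 0, over tested and untested members alike. The 7 include *Ebf1* and *Pax5*, whose counts of 2 and 5 and of 0 and 1 do not fix a ratio. Among the 6 members tested 5 were at least 2-fold higher, against 4.91% of all genes tested. All 5 members called higher had a mean from 1 to 10 CPM, a range in which 17.9% of the 2918 genes were at least 2-fold higher and 8.81% were called higher. *Vpreb1*, *Vpreb3*, *Igll1* and *Dntt* passed the filter only through the KO-labelled library. For them a higher value was therefore set by the filter, and these shares do not measure an enrichment. The median log2 ratio of the 10 members was 1.53, against -0.00317 over all genes tested. A sharper pattern was at most 3 counts in WT and at least 20 in the KO-labelled library. It was met by 3 members (*Dntt*, *Igll1* and *Vpreb3*) and by 29 of 24421 symbols in all (0.119%). Of the 24421, 14855 had a count in at least 1 library. Members were chosen with earlier results of these data known, so these numbers do not measure an enrichment either. The opposite pattern, from at least 20 counts in WT to at most 3, was met by 35 symbols.

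**Figure D2:**
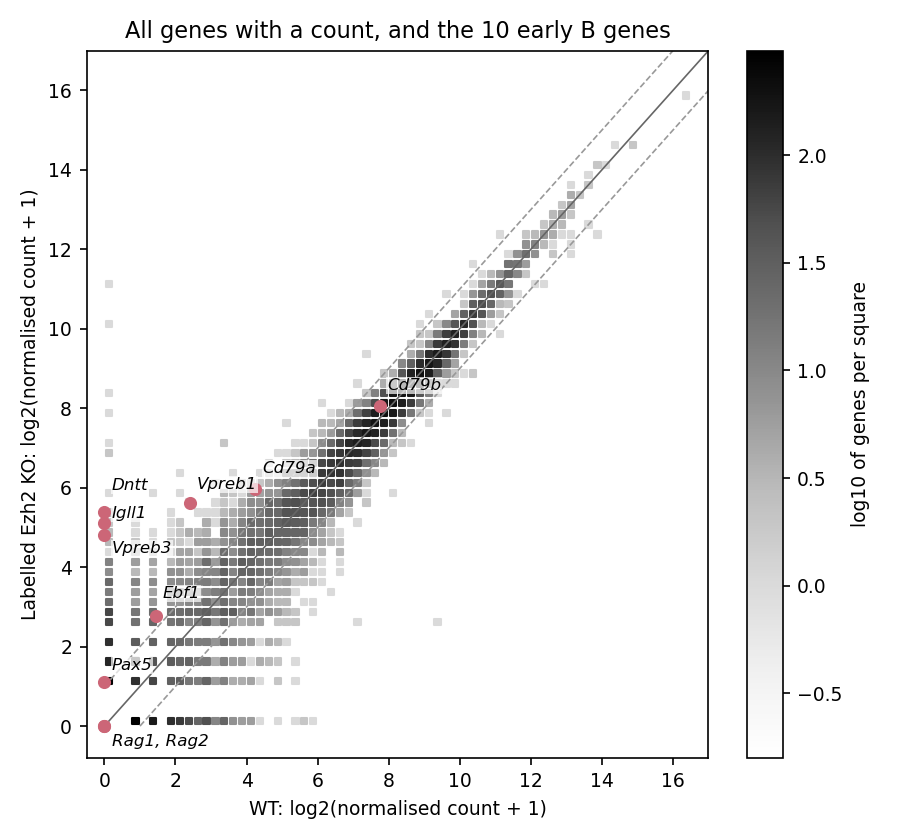
All genes with a count, as squares shaded by the number of genes, with WT on the horizontal and the KO-labelled library on the vertical axis, both as log2 of the normalised count plus 1. The solid line marks equal values, the dashed lines 2-fold differences, and red points the 10 early B lymphoid genes; *Dntt*, *Igll1* and *Vpreb3* lie on the left edge at 0 counts in WT, while *Cd79b* lies near the solid line.

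Genes with the most similar pattern were looked up as the 5 non-members nearest to the median of the members in that plane, a likeness over 2 libraries only. They were *C5ar1* (0 and 25 counts), *Eya4* (0 and 25), *Ear6* (0 and 29), *Bmx* (0 and 21) and *Exph5* (0 and 33). Their distances ran from 0.0457 to 0.343 log2 units. *C5ar1* encodes a complement receptor of myeloid cells, and *Ear6* belongs to the eosinophil-associated ribonucleases.

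Genes beside the 5 called members were read next, a choice made after values were seen. *Igll1* and *Vpreb1* lie 4.42 kb apart in the RefSeq table, and the next protein-coding gene beyond *Vpreb1*, *Top3b*, lies 1.47 kb away. *Top3b*, a DNA topoisomerase, had a log2 ratio of -0.39 and the gene after it, *Ppm1f*, a log2 ratio of -0.71, so the values of these 2 neighbours lay on the other side of 0. *Chchd10*, 5.27 kb from *Vpreb3*, had a log2 ratio of 0.18. *Blnk*, an adaptor of B cell receptor signalling 35.1 kb from *Dntt*, had 19 and 23 counts and a log2 ratio of 0.68 (-0.22 to 1.67). *Arhgef1*, 1.13 kb from *Cd79a*, had a log2 ratio of 0.07. None of these 5 neighbours was called, since none differed at least 2-fold. Some nearer genes were too low to test. Beside *Vpreb3* they were *Gm867* (1 and 0 counts) and *Gm5134* (3 and 4), and beside *Dntt* they were *Opalin* and *Tll2* (0 in both).

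*Vpreb1* has a near-identical copy, *Vpreb2* (chromosome 16, 17980428 to 17981273, plus strand), with 0 counts in WT and 5 in the KO-labelled library. The coding sequences of both, 429 bases long, were 97.9% identical and differed at 9 positions. Of the 1248 distinct 60-base stretches of the *Vpreb1* transcripts, 186 also occur in *Vpreb2*, and 49 occur in *Top3b*, whose exons overlap those of *Vpreb1* by 108 bases on the opposite strand. Such stretches made up 18.8% of those of *Vpreb1*, and reads that fall in them could not be placed, or could be placed on the wrong gene. For *Vpreb2* the share was 26.6%, or 186 of 700 stretches, all shared with *Vpreb1*. The counts of *Vpreb1* and *Vpreb2* are uncertain for this reason. The stretch that best separates the copies is shown, bases 328 to 387 of the coding sequence, at chr16:16868638-16868697 (minus) for *Vpreb1* and chr16:17980979-17981038 (plus) for *Vpreb2* on GRCm38, with capitals at the 5 differences.
Vpreb1: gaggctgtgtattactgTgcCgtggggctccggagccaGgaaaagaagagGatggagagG
Vpreb2: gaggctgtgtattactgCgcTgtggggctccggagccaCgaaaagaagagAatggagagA

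*Dntt*, *Igll1*, *Vpreb3*, *Ebf1* and *Cd79b* shared 0 stretches with the transcripts of other genes. *Cd79a* shared 6.58% of its stretches with *Gm32220*. The share was 6.73% for *Pax5*, 4.41% for *Rag2* and 0.351% for *Rag1*.

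The other genes of the B lineage programme held calls in both directions. Of 71 such genes in 6 lists, 57 were tested, 3 were called higher, among them *Lef1* and *Satb1*, and 1 lower, against 2.8% and 2.3% of all genes tested, and their median log2 ratio was 0.13. *Lef1*, a transcription factor of early B and T cell progenitors, had 3 counts in WT and 24 in the KO-labelled library, a ratio of 10.9 (3.30 to 56.4). *Satb1*, a chromatin organiser linked to lymphoid fate, had 29 and 74 counts, a log2 ratio of 1.75 (1.16 to 2.47).

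**Figure D3:**
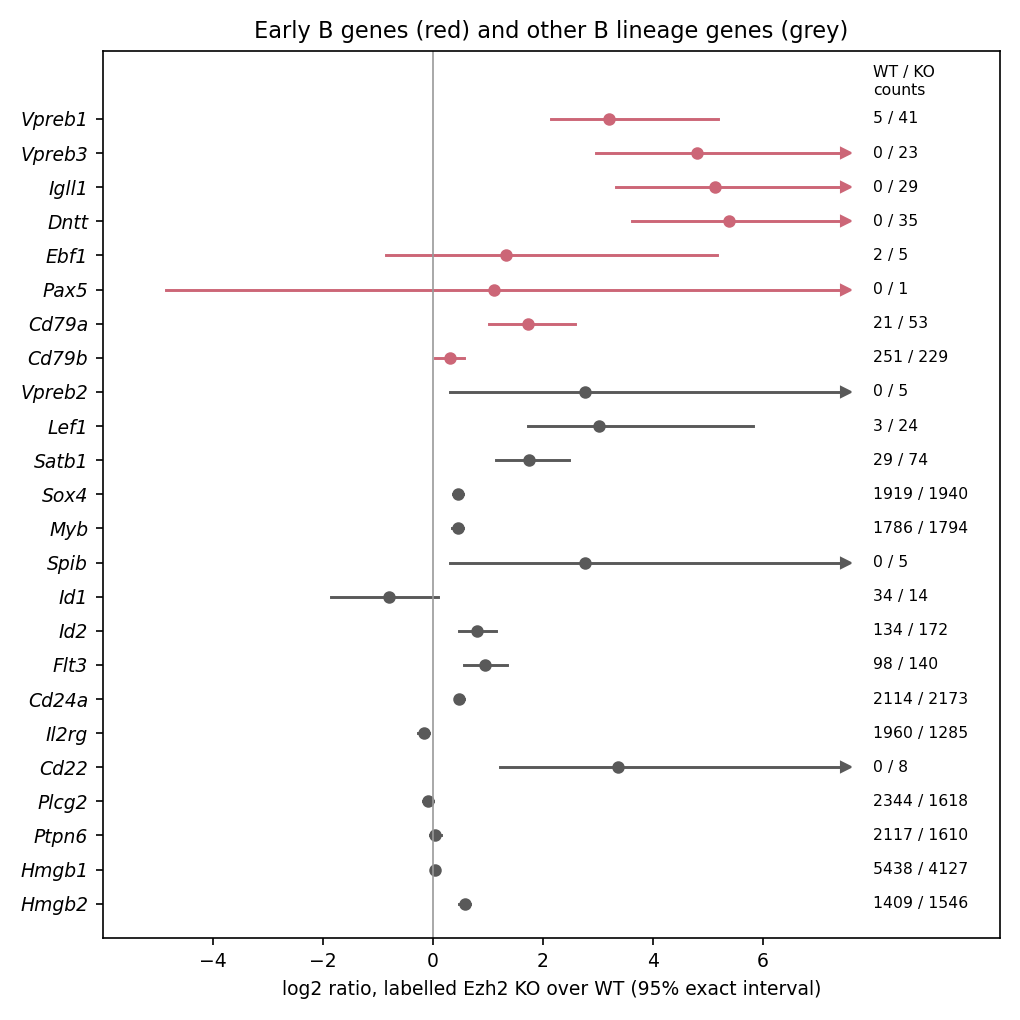
Log2 ratio of the KO-labelled library over WT (horizontal axis) for the 8 early B lymphoid genes with a count, in red, and for other B lineage genes, in grey. Points are ratios of normalised count plus 1, lines the exact 95% interval of the ratio of the 2 counts, arrows an interval without an upper limit, and the numbers on the right the raw counts. The intervals of *Vpreb1*, *Vpreb3*, *Igll1*, *Dntt* and *Cd79a* lie above 1, and those of *Ebf1* and *Pax5* span 0.

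Of 22 transcription factors of lymphoid priming and the B lineage, 2 were called higher, 0 lower and 17 were tested without a call, with a median log2 ratio of 0.29. The most abundant of them, *Sox4* and *Myb*, had log2 ratios of 0.46 and 0.45. Among the 4 inhibitors of E proteins 0 were called, and *Id2* and *Id1*, the most abundant, had log2 ratios of 0.80 and -0.80. Of 12 lymphoid receptor and surface genes 1 was called higher and 0 lower, the median log2 ratio was 0.41, and *Bst1* and *Cd2* had 0 counts in both libraries. *Cd24a* and *Il2rg*, the most abundant of them, had log2 ratios of 0.48 and -0.17. Of 19 genes of receptor signalling 0 were called higher and 1 lower, with a median log2 ratio of 0.06, and *Fcrla* had 0 counts in both. *Plcg2* and *Ptpn6*, an enzyme that passes the signal on and a phosphatase that damps it, had log2 ratios of -0.09 and 0.05. Of 13 partners in V(D)J recombination, mostly DNA repair genes, 0 were called and the median log2 ratio was -0.27. *Hmgb1* and *Hmgb2*, DNA-bending proteins that assist the RAG enzyme, had log2 ratios of 0.04 and 0.57.

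Some low counts outside the call rule are given here, chosen after their values were seen. *Cd22*, an inhibitory co-receptor of B cells, had 0 and 8 counts, and *Spib*, a transcription factor of B cells and plasmacytoid dendritic cells, had 0 and 5. Other low counts lay the opposite way, with 8 and 0 for *Fcmr*, the receptor for IgM, and 4 and 0 for *Blk*, a kinase of B cells. *Cxcr5* had 5 and 2 counts and *Fcrl1* 4 and 1. *Flt3*, a cytokine receptor of lymphoid-primed progenitors against which the cells had been gated, had 98 and 140 counts, a log2 ratio of 0.95 (0.57 to 1.34). *Il7r*, another gene of the gate, had 0 and 1 count. Of 6 immunoglobulin constant region genes looked up, 0 were found among the counted symbols, so no value can be given for them.

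Markers of other cell types were read beside the members, and their part in the result was not tested. In bulk RNA, fewer cells of a type and less RNA per cell cannot be told apart. Of 12 mature B and plasma cell markers 0 were called, their summed level was 83.6 CPM in WT and 73.8 CPM in the KO-labelled library, and the defining genes *Ms4a1*, *Cd40* and *Tnfrsf17* were at 0 in both. Of 18 T and NK cell markers 3 were called higher (*Il2rb*, *Cd247* and *Cd3g*) and 1 lower (*Klrb1c*), the summed level was 135 and 130 CPM, and *Cd3d*, *Cd3e*, *Zap70*, *Bcl11b* and *Gzma* were at 0 in both. *Il2rb* had 0 and 34 counts, beside 0 and 35 for *Dntt*. Of 9 plasmacytoid dendritic cell markers, a cell type that can also express *Dntt*, 0 were called, the sum was 112 and 119 CPM, and *Klk1*, *Cox6a2* and *Tlr9* were at 0.

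Several myeloid and erythroid markers were called higher in the same library as the members, and others of the same lists were not. Of 8 eosinophil markers 5 were called higher (*Prg2*, *Epx*, *Prg3*, *Ear1* and *Ear2*), while *Ccr3* and *Siglecf* each had 5 and 4 counts, and the sum of the list was 2.08 CPM in WT and 775 CPM in the KO-labelled library. Of 10 neutrophil markers 4 were called higher (*Ngp*, *Ltf*, *S100a8* and *Camp*), with sums of 2006 and 3687 CPM, and 6 were not called. By sign alone, 7 of the 10 neutrophil markers had a log2 ratio above 0 and 3 below. Among the 6 not called, *Elane* had 860 and 374 counts, a log2 ratio of -0.76. *Ccr3*, *Siglecf* and *Elane* were chosen after their values were seen. Of 10 erythroid markers 4 were called higher, among them *Klf1*, *Car1* and *Ermap*, with sums of 1778 and 2283 CPM. The globin genes *Hba-a1* and *Hbb-b1* were listed at 0 in both, and the other 8 had a log2 ratio above 0. GENCODE M21 gave no exon length for the symbol *Hbb-b1*, and these zeros do not show that globin RNA was absent. Of 7 genes tied to the negative sort gates 1, *Itgam*, was called higher. The median log2 ratio was 4.76 for eosinophil, 0.59 for neutrophil and 1.00 for erythroid markers, and -0.07 for HSC markers.

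**Figure D4:**
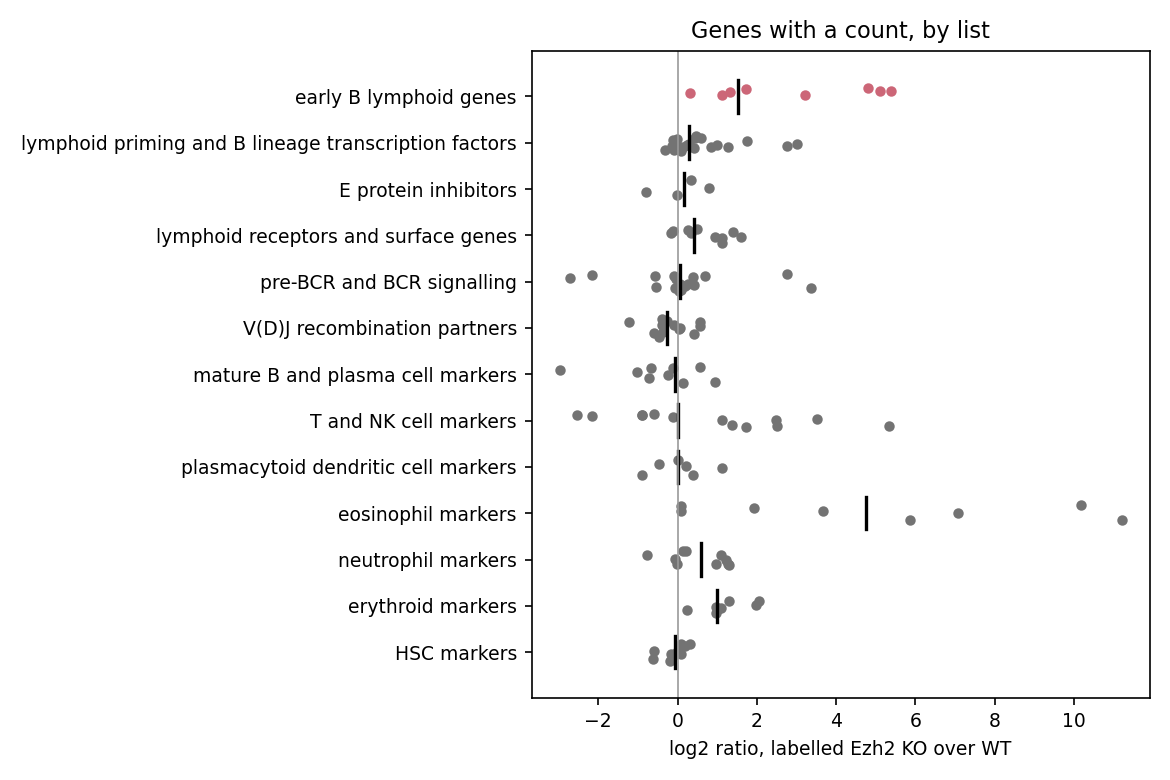
Log2 ratio of the KO-labelled library over WT (horizontal axis) for each gene with at least 1 count, by list; black bars mark the median of all listed genes, those at 0 counts included. The early B lymphoid genes, in red, run from 0.31 to 5.38 with a median of 1.53, while the mature B cell list has a median of -0.06.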

How the data were processed

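RNA was measured by RNA-seq in 1 WT and 1 KO-labelled HSC library, made with a SMARTer low-input kit and grouped by the titles in the labels. The authors deposited raw counts, 1 value for each gene symbol, with no normalisation. Alignment was to mm10 with TopHat2 2.0.13 and Bowtie2 2.1.0 (versions from the submitters' processing notes), and the methods credit raw counts to StringTie. The 5 closing entries of each file bear htseq-count names, so the counter and its use of strand are uncertain. These entries (56.1% of all entries in WT and 56.9% in the other library) were left out.

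Counts were divided by DESeq2 1.42.0 size factors (1.17 and 0.858), and ratios use log2 of the normalised count plus 1. Neither edgeR nor DESeq2 can estimate a spread from 1 library per group, so neither was fitted with replicates. An exact two-sided binomial test with Benjamini-Hochberg adjustment was applied to all genes that averaged 1 CPM or more, with exact 95% Clopper-Pearson intervals of ratios and exact Poisson intervals of levels. The procedure was tested on simulated data. Alternatives were TMM and total-count scaling, other pseudocounts, filters and thresholds, and the exact test of edgeR 4.0.16 with an assumed CV. Members and lists were chosen with earlier results of these data known. Beside all members, the genes named were called genes, genes at 0 in both libraries and the 2 most abundant genes of each B lineage list, called and absent markers, *Ezh2* and the 5 genes of nearest pattern. Neighbours in the genome, sex-linked genes and a few low counts fall outside this rule, and some genes that the rule selects are not reported here. Exon lengths came from GENCODE M21, and promoter sequence from RefSeq on GRCm38.p6. Scripts ran in R 4.3.3 and in Python 3.11.15 with scipy 1.17.1, numpy 2.4.6, matplotlib 3.10.9 and pandas 2.3.3.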

Additional observations from a re-analysis of the deposited data

How the results depend on the processing

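No paired analysis was possible because there was a single library per genotype, and for that reason no library could be left out. Against 5 members called higher, 2 were called with a minimum mean of 5 CPM (*Vpreb1* and *Cd79a*), since 3 of the others fell below it, and 0 with an assumed CV of 0.4; over all genes, calls higher fell from 353 to 189 and 8, and calls lower from 290 to 187 and 2. An assumed CV of 0.2 called 4 members, 41 genes higher and 22 lower. A 4-fold threshold called 4 members, 169 genes higher and 96 lower. Against 7 members at least 2-fold higher, 4 were at least 4-fold higher. With a pseudocount of 5 the log2 ratios of *Vpreb3*, *Igll1* and *Dntt* were 2.67, 2.96 and 3.19, because they had 0 counts in WT. Leaving *Cd79b* out moved the ratio of the summed counts from 2.02 to 9.07. No member's log2 ratio changed sign under the alternatives run, and TMM and total-count scaling moved none by more than 0.03. *Kit*, *Btk*, *Bcl11a*, *Id3* and *Ctsg*, all within 0.03 of 0, changed sign under total-count scaling. With 0 to 53 counts for 9 of 10 members, depth limits these values, and no replicate shows how far they vary between libraries.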
